A study of Mus musculus with 4 samples.

Results

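Long noncoding RNAs are transcripts that are not translated into protein. Described here are 6 of them in the mouse heart, *Malat1*, *Neat1*, *Meg3*, *H19*, *Rian* and *Mirg*, out of 23337 genes listed by symbol for each of 4 RNA-seq libraries. They were taken as a named list of nuclear and imprinted noncoding genes, and *Malat1* was noticed because it was among the 10 most counted genes of both control libraries and not of either library of PIMT-deleted hearts. The genotype difference of *Malat1* was thus part of the choice, and the genotype ratios of all 6 are given as a description, without a test.

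The libraries compared hearts of C57BL6/J mice at 2 and 6 months of age. Controls were PIMT fl/fl mice, whose *PIMT* gene carries loxP sites around exons 3 and 4 (their genotype field reads WT). The csPIMT-/- mice carry the same floxed alleles and an α-MyHC-Cre transgene, whose promoter drives Cre recombinase in cardiomyocytes from the late embryonic period, so that the other cells of the heart keep the gene. RNA of 5 hearts per group, from male and female mice, was pooled into 1 library, so no group has a replicate library and no difference between groups can be set against the spread between mice.

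*Malat1* and *Neat1* are nuclear RNAs from neighbouring genes. *Malat1* collects in nuclear speckles, which store splicing factors, and *Neat1* is the scaffold of paraspeckles, nuclear bodies that hold RNA-binding proteins such as Sfpq and Nono. The other 4 genes are imprinted and are expressed from the maternal chromosome. *H19* lies beside the growth factor gene *Igf2* and shares its enhancers, is abundant in fetal tissue and contains the hairpin of miR-675. *Meg3*, *Rian* and *Mirg* follow one another in the *Dlk1*-*Dio3* domain, where they are transcribed in the same direction. *Rian* hosts snoRNAs and *Mirg* hosts a cluster of miRNAs.

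The positions come from the GENCODE annotation of GRCm38, the assembly also called mm10. *Malat1* was at chr19:5795690-5802672 on the minus strand and *Neat1* at chr19:5824708-5845478 on the minus strand, and the longest transcript of each is a single exon that fills the gene, of 6983 and 20771 bases. *H19* was at chr7:142575529-142578143 on the minus strand, with 2460 bases of exon. On the plus strand of chromosome 12, *Meg3* was at chr12:109541001-109571726 with 18089 bases of exon, *Rian* at chr12:109603940-109661716 with 18234 and *Mirg* at chr12:109729764-109749460 with 7292. None of the 6 is protein-coding in that annotation.

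The 3′ end of *Malat1* and that of the longest of the 4 annotated *Neat1* transcripts are shown because they differ from those of ordinary polyadenylated RNA. As background, these ends are made by cleavage before a tRNA-like structure, and a genomically encoded A-rich tract folds back on U-rich runs to form a triple helix. The libraries were made from RNA selected on oligo-dT. Capitals mark the pair of U-rich runs (written with T) and the A-rich tract at the end of each stretch. The *Malat1* stretch is chr19:5795982-5796075 and ends 292 bases before the annotated end of the gene, while the *Neat1* stretch, chr19:5824708-5824807, ends at it. Both are GRCm38, minus strand.
Malat1 3′ end: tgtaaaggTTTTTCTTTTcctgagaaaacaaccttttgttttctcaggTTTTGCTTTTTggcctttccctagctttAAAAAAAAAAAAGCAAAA
Neat1 3′ end: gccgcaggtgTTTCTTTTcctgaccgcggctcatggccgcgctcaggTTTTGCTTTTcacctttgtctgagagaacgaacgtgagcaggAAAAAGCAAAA
The 3 motifs searched were the capital runs of the *Neat1* stretch as printed, in that order, on the sense strand of the longest GENCODE transcript of each gene. All 3 occurred in this order, within spans of 84 and 90 bases, in 2 of 22841 transcripts, those of *Malat1* and *Neat1*. The match in *Neat1* was fixed by this choice of motifs, so the share is a description.

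The promoter of *Meg3* is shown because it stands at the start of the *Meg3*, *Rian* and *Mirg* series. The sequence is from RefSeq (GRCm38.p6, chr12:109540746-109541045, plus strand), and 4 of the 6 genes had an entry in that promoter set. Capitals mark CCAAT at position -100 from the start site, TGACGTCA, the palindromic cAMP response element, at -57, and TATAAA with its overlapping copy on the opposite strand, together beginning at -29.
Meg3 promoter: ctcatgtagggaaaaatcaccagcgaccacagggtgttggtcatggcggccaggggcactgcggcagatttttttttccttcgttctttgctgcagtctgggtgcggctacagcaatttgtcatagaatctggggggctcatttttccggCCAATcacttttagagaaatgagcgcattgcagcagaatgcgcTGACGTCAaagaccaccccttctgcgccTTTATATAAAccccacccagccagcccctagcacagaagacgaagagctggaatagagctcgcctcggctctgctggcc
On either strand, CCAAT occurred in 37.4% of 32851 RefSeq promoters of this length, TGACGTCA in 1.79% and TATAAA in 13.6%.

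Of the miRNAs hosted by these genes, those of the *Mir382* and *Mir668* rows are shown because they held the most reads within *Mirg*, and miR-675 because it is the miRNA of *H19*. The mature sequences are from RefSeq (GRCm38.p6), with the seed, bases 2 to 8, in capitals. No seed is shared among them.
mmu-miR-382-5p: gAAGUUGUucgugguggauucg
mmu-miR-382-3p: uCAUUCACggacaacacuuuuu
mmu-miR-668-5p: gUAAGUGUgccucgggugagcaug
mmu-miR-668-3p: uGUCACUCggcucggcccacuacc
mmu-miR-675-5p: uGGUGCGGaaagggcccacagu
mmu-miR-675-3p: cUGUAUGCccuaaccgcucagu

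The authors deposited a normalized read count for each gene and library, that is, reads on the gene divided by a size factor of the library. All values were whole multiples of what 1 read is worth (between 0.865 normalized counts in the 2-month control and 1.23 in csPIMT-/- at 2 months), so that reads could be recovered. The libraries held between 29823073 reads (csPIMT-/-, 2 months) and 40705783 reads (control, 6 months) on genes. *Tgs1*, the symbol of the *PIMT* gene, had 580 normalized counts in the control and 160 in csPIMT-/- at 2 months, and 816 and 162 at 6 months. Its ratio of csPIMT-/- to the age-matched control was 0.276 at 2 months and 0.199 at 6 months, or 0.6002 and 0.493 with the trend of the ratios of all genes on GC content subtracted. The count covers the whole gene and is not limited to the deleted exons.

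Cell and sex markers differed between the pools. The summed normalized counts of 6 cardiomyocyte genes lay between 897615 (csPIMT-/-, 6 months) and 1220810 (csPIMT-/-, 2 months). The sum of 5 macrophage genes was 9042 and 22895 in the controls of 2 and 6 months and 29874 and 39736 in csPIMT-/-, and that of 4 atrial genes was 40737 and 114957 against 325567 and 348345. At 2 months all 4 atrial genes were higher in csPIMT-/- (*Nppa* 38182 in the control and 201180, *Myl7* 1045 and 42908, *Sln* 130 and 12629, *Myl4* 1379 and 68851). At 6 months *Nppa* carried the atrial sum (70659 in the control and 320296 in csPIMT-/-), and the other 3 were lower in csPIMT-/- (*Myl7* 17299 and 8084, *Sln* 3996 and 1684, *Myl4* 23002 and 18281). The sum of 3 brown fat genes was 1899 and 1108 in the controls of 2 and 6 months and 4356 and 2618 in csPIMT-/-. Among them *Ucp1* had 8.65 and 93.2 normalized counts in the controls and 1766 and 12.5 in csPIMT-/-. *Ucp1* was thus lower in csPIMT-/- at 6 months, where *Cidea* was higher (1015 in the control and 2600), as was *Elovl3* (0 and 5.20). The sum of 6 fibroblast genes was 118877 and 55206 in the controls and 95002 and 102689 in csPIMT-/-. Not every gene followed the sum of its list. At 6 months the macrophage gene *Emr1* had 2660 in the control and 1974 in csPIMT-/-, and the fibroblast gene *Lum* 6814 and 3934. At 2 months the cardiomyocyte gene *Pln* had 105003 and 40819. Summed counts of 5 lung genes were 1.73 and 8.79 in the controls, with 4 and 2 of the genes at 0, and 1160 and 17.7 in csPIMT-/-. *Xist*, expressed in females, had 805 and 25639 normalized counts in the controls and 6369 and 12856 in csPIMT-/-, and the Y-linked *Uty* had 2254 and 300 against 87.5 and 171. The markers of both sexes thus differed between the pools, and the part of cell and sex make-up in the values below was not tested. In whole-heart RNA, fewer cells of a type and less RNA per cell cannot be told apart.

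Only *Malat1* was among the most counted genes. *Malat1* was the 5th and the 3rd most counted gene in the controls of 2 and 6 months, the 38th in csPIMT-/- at 2 months and the 13th at 6 months. It took 0.602% and 0.669% of all reads on genes in the controls, and 0.197% and 0.383% in csPIMT-/-. In the 2-month control the 10th gene was *Atp5b* with 144001 normalized counts and the 11th *Col3a1* with 141327, and in the 6-month control they were *Actc1* with 134001 and *Atp5a1* with 133543. In csPIMT-/- at 2 months they were *Atp5b* with 195331 and *Atp2a2* with 180057, and at 6 months *Mb* with 179196 and *Atp5b* with 155852. *Neat1* ranked between 457 and 2621 and *H19* between 707 and 2564, and *Mirg*, at the other end, between 12935 and 13953.

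Levels of different genes were compared per kilobase of exon, with the exons of all annotated transcripts of a gene joined. Reads were not assigned to single transcripts, of which *Neat1* has 4, *Meg3* 11 and *Rian* 20. Where a shorter transcript held most reads, this scale gives too low a level, so the order depends on the length used. On that scale *Malat1* stood at 29721 and 34303 normalized counts per kb in the controls of 2 and 6 months. The order below it was *H19* (3147 and 1644), *Neat1* (242 and 526), *Rian* (66.2 and 47.9), *Meg3* (38.8 and 26.4) and *Mirg* (5.58 and 4.46). In csPIMT-/- at 2 months the order was the same, from 10347 for *Malat1* and 1139 for *H19* through 131 for *Neat1*, 42.9 for *Rian* and 10.2 for *Meg3* to 2.54 for *Mirg*. In csPIMT-/- at 6 months *Meg3* (15.8) and *Rian* (15.6) stood level, on 274 and 273 reads, a difference within counting error.

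*Malat1* had 207542 normalized counts in the control and 72254 in csPIMT-/- at 2 months, and 239537 and 144030 at 6 months. Both csPIMT-/- libraries were below both controls. Relative to the age-matched control, csPIMT-/- had a ratio of 0.348 at 2 months (95% interval 0.345 to 0.351) and 0.601 at 6 months (0.597 to 0.605). These intervals cover the counting error of the reads only, and not the variation between mice or pools.

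*Neat1* had 5033 normalized counts in the control and 2727 in csPIMT-/- at 2 months, and 10935 and 8451 at 6 months. At each age the csPIMT-/- library was the lower one, but the 6-month csPIMT-/- library stood above the 2-month control. The ratios were 0.542 (0.516 to 0.569) at 2 months and 0.773 (0.751 to 0.795) at 6 months. Against the control of the other age the 6-month ratio was 1.68, and against the mean of both controls 1.06, so the direction at 6 months turned with the choice of control. *Neat1* made up 2.37% and 4.37% of the reads on *Malat1* and *Neat1* together in the controls of 2 and 6 months, and 3.64% and 5.54% in csPIMT-/-.

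*H19* had 7742 normalized counts in the control and 2802 in csPIMT-/- at 2 months, and 4045 and 4071 at 6 months. The 2-month control was the high library and the others were lower. The ratio was 0.362 (0.346 to 0.379) at 2 months and 1.01 (0.964 to 1.05) at 6 months, and the latter interval contains 1. *Igf2*, the imprinted neighbour of *H19*, which was named after its values were seen, had 5401 and 974 normalized counts at 2 months and 2261 and 1158 at 6 months, with ratios of 0.180 (0.167 to 0.194) and 0.512 (0.477 to 0.550).

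*Meg3* had 702 normalized counts in the control and 184 in csPIMT-/- at 2 months, and 478 and 285 at 6 months. Both csPIMT-/- libraries were below both controls. The ratios were 0.262 (0.218 to 0.312) and 0.596 (0.513 to 0.690), the first being the lowest among the 6 genes at that age.

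*Rian* had 1206 normalized counts in the control and 782 in csPIMT-/- at 2 months, and 874 and 284 at 6 months. It was the only one of the 6 with a lower ratio at 6 months, 0.325 (0.283 to 0.372), than at 2 months, 0.648 (0.589 to 0.712). *Mirg* had 40.7 and 18.5 normalized counts at 2 months and 32.5 and 22.9 at 6 months, from 47, 15, 37 and 22 reads. Its ratios were 0.455 (0.236 to 0.828) and 0.703 (0.395 to 1.22), so the interval at 6 months contains 1. For *Rian* and *Mirg*, as for *Malat1* and *Meg3*, both csPIMT-/- libraries were below both controls. The share of all genes with this order was not counted, so the order is a description and does not set these genes apart.

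**Figure D1:**
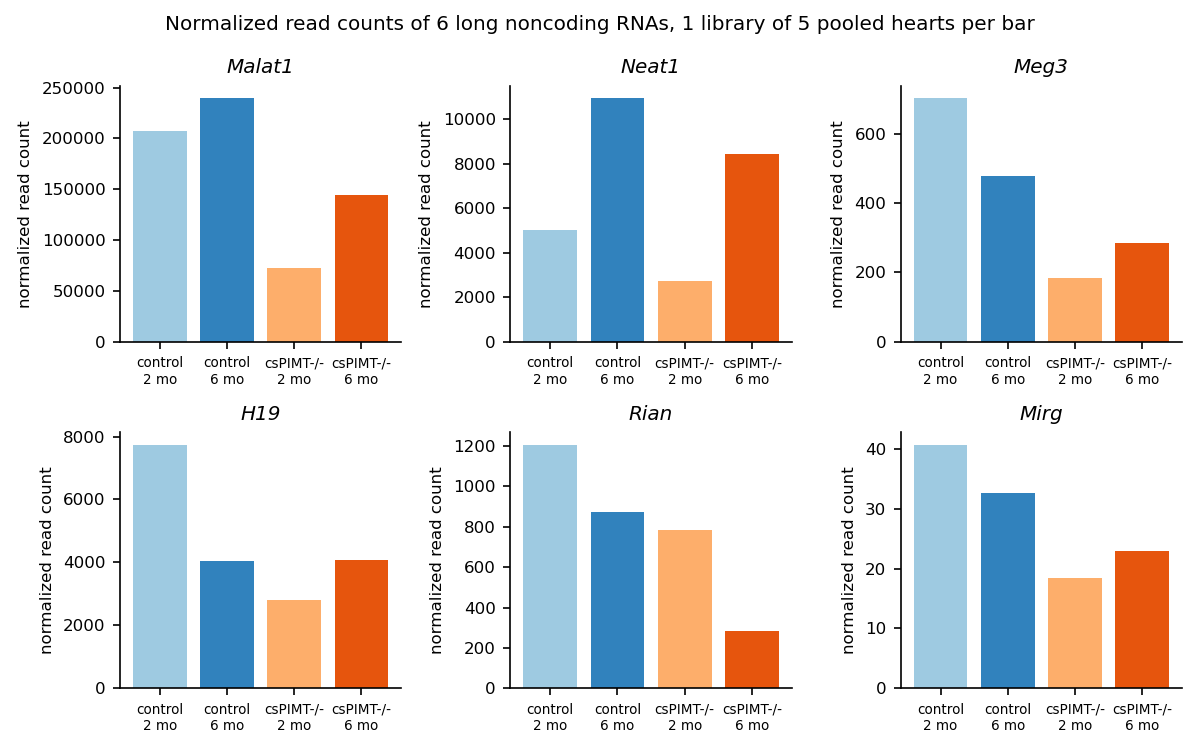
Normalized read counts (vertical axes, from 0, with a scale for each gene) of 6 long noncoding RNAs in the control and csPIMT-/- libraries of 2 and 6 months (mo). Each bar is 1 library of 5 pooled hearts, so there are no error bars. *Malat1* fills 207542 and 239537 counts in the controls and 72254 and 144030 in csPIMT-/-, *Neat1* is higher at 6 months in both genotypes, and *H19* is highest in the 2-month control.

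At 2 months all 6 genes had a ratio below 1, and 4 of them (*Malat1*, *Meg3*, *H19* and *Mirg*) were below 0.5, with a median of 0.408. Of the 15152 genes that reached 10 reads in either library, 22.5% were below 0.5 and 17.3% above 2, with a median ratio of 0.999. At 6 months 5 of the 6 were below 1 and only *Rian* was below 0.5, with a median of 0.652, while 24.9% of 15218 genes were below 0.5 and 16.9% above 2, with a median of 1.003. In the distribution of all genes, *Meg3* had 6.87% of genes below it at 2 months, *Malat1* 12.1%, *H19* 12.96% and *Rian* 31.5%. At 6 months these shares were 30.4%, 30.6%, 50.1% and 13.7%.

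The ratio of csPIMT-/- over control varied with the GC content of the transcript. Across all genes Spearman's rho of the log2 ratio with GC content was 0.580 at 2 months and 0.607 at 6 months, and between the 2 controls it was -0.268. Genes are not independent replicates, so no p is given. The longest transcripts of the 6 genes had a GC content of 35.8% (*Rian*), 42.5% (*Malat1*), 47.3% (*Neat1*), 49.2% (*Meg3*), 51.9% (*Mirg*) and 55.8% (*H19*). At the GC content of *Malat1* the trend over all genes stood at a ratio of 0.486 at 2 months and 0.424 at 6 months, and at that of *Rian* at 0.271 and 0.278. At that of *H19* it stood at 1.53 and 1.55.

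With this trend, a lowess curve, subtracted, *Meg3*, *H19* and *Mirg* had a ratio below 1 at both ages. *Meg3* had an adjusted ratio of 0.281 at 2 months and 0.627 at 6 months, *H19* 0.236 and 0.650, and *Mirg* 0.379 and 0.555. *Malat1* had 0.717 at 2 months and turned to 1.42 at 6 months. *Neat1* had 0.698 and 1.02, and *Rian* turned to 2.39 and 1.17. On this scale 3 of the 6 were below 0.5 and 1 above 2 at 2 months, against 11.7% and 14.9% of all genes, and none was past either limit at 6 months, against 13.4% and 14.2%.

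The adjusted value depended on which transcript stands for a gene. *Rian* has 20 annotated transcripts with a GC content between 35.1% and 55.0%, and with the median over transcripts, 43.1%, its adjusted ratios were 1.45 and 0.832. In the same setting, added after the data were seen, *Malat1* had 0.972 and 1.80, *Neat1* 0.493 and 0.662, *Meg3* 0.166 and 0.374, *H19* 0.262 and 0.699 and *Mirg* 0.385 and 0.558. All of the genes but *Rian* were thus below 1 at 2 months under every scaling, GC setting and choice of control that was run, and *Meg3* and *Mirg* also at 6 months.

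**Figure D2:**
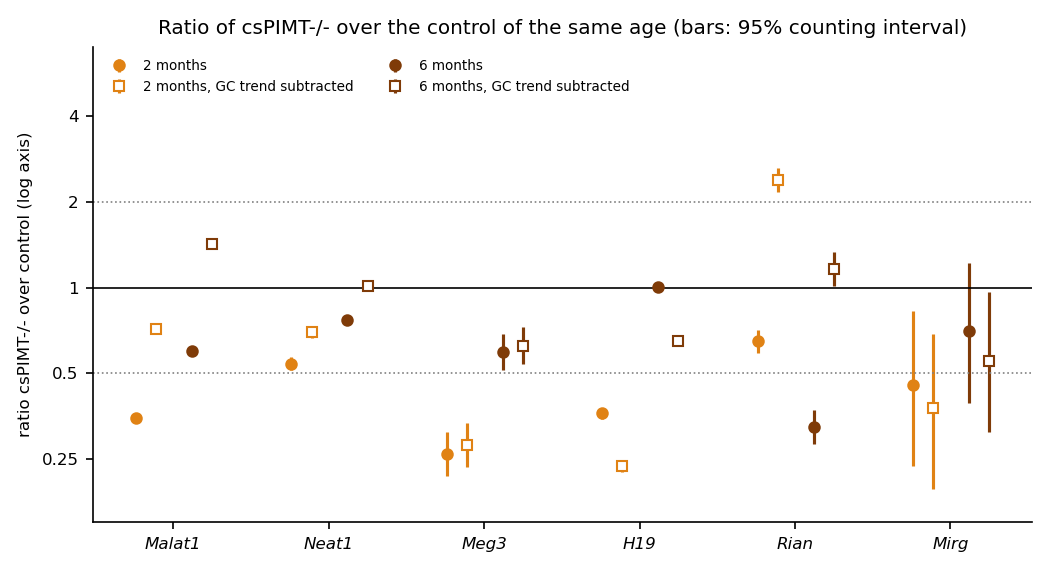
Ratio of csPIMT-/- to the age-matched control (vertical log axis) of each gene at 2 months (light) and 6 months (dark). Filled circles are the ratios of normalized counts, open squares those with the GC trend of all genes subtracted, bars are 95% counting intervals and dotted lines stand at 0.5 and 2. *Rian* moves from 0.648 to 2.39 with the trend subtracted at 2 months, while *Meg3* stays near its value (0.262 and 0.281).

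**Figure D3:**
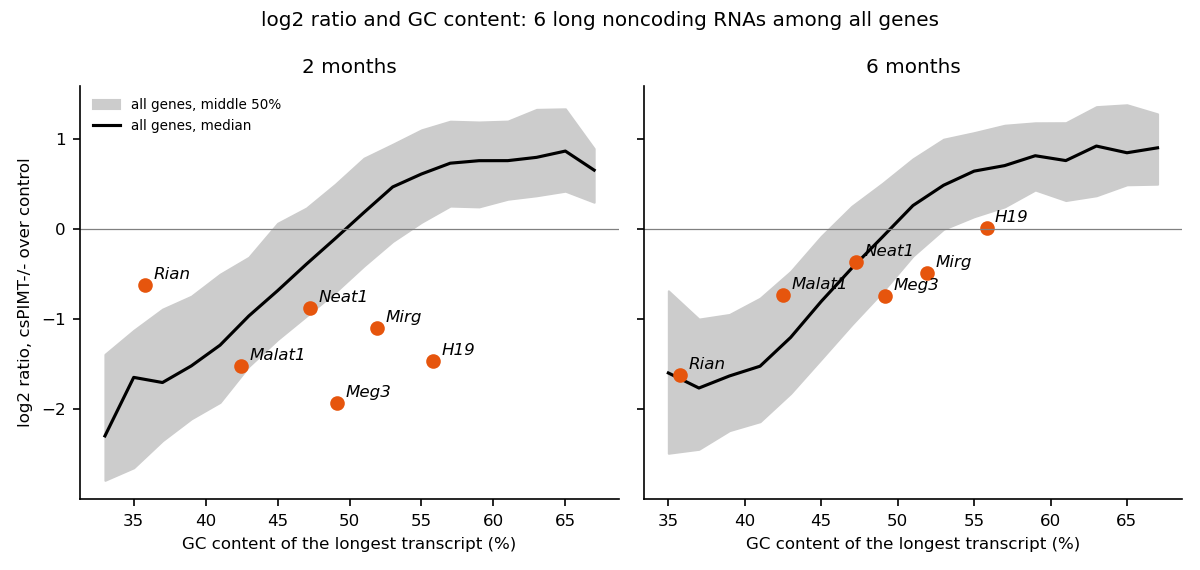
log2 ratio of csPIMT-/- over control (vertical axis) against the GC content of the longest transcript in percent (horizontal axis) at 2 and 6 months. The line and the grey band are the median and the middle 50% of all genes in bins of GC content, and points are the 6 noncoding RNAs. *Meg3*, *H19* and *Mirg* lie below the line at both ages, while *Rian* lies above it at 2 months and close to it at 6 months.

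The control libraries were also set against each other, to place these ratios beside a difference between pools of 1 genotype. These pools differ in age and in mice, which cannot be told apart. They also differ in the sex and atrial markers given above, such as *Xist* (805 and 25639 at 2 and 6 months) and *Myl7* (1045 and 17299). The part of these differences was not tested. The 6-month control over the 2-month control gave a ratio of 2.17 for *Neat1* and 1.15 for *Malat1*. For the imprinted genes it was 0.522 for *H19*, 0.682 for *Meg3*, 0.725 for *Rian* and 0.800 for *Mirg*. None of the 6 was below 0.5 and 1 was above 2, against 4.65% and 9.01% of 15132 genes. With the GC trend subtracted, 1 (*Rian*, 0.495) was below 0.5 and 1 (*Neat1*, 2.04) above 2, against 4.96% and 7.35%. *Neat1* had 92.6% of genes below it and *H19* 4.98%. The choice of the 6 genes did not rest on this comparison.

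A difference with age over both genotypes was tested with limma on log2(normalized count + 1), with genotype in the model and all 4 libraries. This fit has 1 residual degree of freedom, the difference between the age effects of the 2 genotypes, which stands in for replicate error. *Neat1* was higher at 6 months by 1.38 on the log2 scale (SE 0.23, unadjusted p = 0.0017 in limma), but its adjusted p over all 14847 genes was 0.76. *Rian* differed by -0.96 (SE 0.33, limma adjusted p = 0.76) and *Malat1* by 0.60 (SE 0.35, limma adjusted p = 0.82). *H19* (-0.20), *Meg3* (0.04) and *Mirg* (-0.01) had limma adjusted p-values of 0.95, 0.99 and 0.997.

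For *Meg3*, *H19* and *Mirg* the controls were lower at 6 than at 2 months and the csPIMT-/- libraries higher, so that the mean over genotypes was near 0. By limma 0% of genes were called in either direction, with 965 genes at an unadjusted p under 0.05, and edgeR's quasi-likelihood test on the recovered reads also called 0, with 904. DESeq2 called 93 genes, *Neat1* among them (DESeq2 adjusted p = 0.00502). For the other 5 genes the lowest adjusted p of any tool or setting was that of *Rian* in DESeq2, 0.444.

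*Meg3*, *Rian* and *Mirg* did not keep one proportion among the libraries. Of their summed reads, *Rian* took 61.9% (95% exact Clopper-Pearson interval 59.9 to 63.9) and 63.1% (60.7 to 65.5) in the controls of 2 and 6 months. It took 79.4% (76.5 to 82.2) in csPIMT-/- at 2 months and 48.0% (43.8 to 52.2) at 6 months. *Meg3* took 36.01% and 34.5% in the controls, and 18.7% and 48.2% in csPIMT-/-. The intervals of *Rian* in the controls overlap each other, and the csPIMT-/- interval lies above them at 2 months and below them at 6 months. These intervals cover counting error only, and not the variation between mice or pools. *Mirg* took 2.09%, 2.35%, 1.88% and 3.87% of the reads in the controls of 2 and 6 months and csPIMT-/- of 2 and 6 months, with overlapping intervals. The GC content of the *Rian* transcripts differs from those of *Meg3* and *Mirg*, and its part in these shares was not tested.

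**Figure D4:**
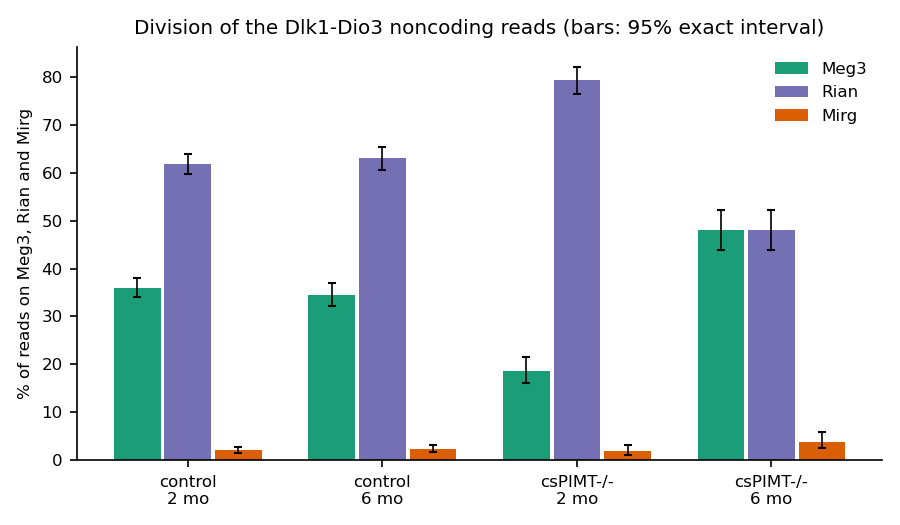
Share of the reads on *Meg3*, *Rian* and *Mirg* together that fell on each of them (vertical axis, percent), by library, with 95% exact intervals of counting error. *Rian* holds 61.9% and 63.1% in the controls, and 79.4% and 48.0% in csPIMT-/- at 2 and 6 months.

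The tables also list small RNAs within these genes, whose rows hold reads that fell on the precursor's place and not the mature RNA, since polyadenylated RNA was sequenced. The 13 miRNA rows within *Mirg* held 41 and 29 reads in the controls of 2 and 6 months and 11 and 12 in csPIMT-/-, with ratios of 0.382 (0.177 to 0.757) and 0.490 (0.228 to 0.989). *Mir382* held 12 and 7 reads in the controls and 5 and 1 in csPIMT-/-, and *Mir668* 1 and 12 against 3 and 4. The sums were thus lower in csPIMT-/- at both ages, while single rows were too low to compare. *Mir675* within *H19* and *Mir770* within *Meg3* had 0 reads in every library. How reads on both a small RNA row and its host gene were counted is not given in the sources used here. These counts of 0 thus set no limit on the RNA.

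The 4 snoRNA rows within *Rian* (*AF357359*, *AF357426*, *AF357355* and *AF357425*) held 63 and 22 reads in the controls of 2 and 6 months and 2 and 4 in csPIMT-/-. Their ratios were 0.0452 (0.00536 to 0.170) and 0.215 (0.0539 to 0.633), and at 2 months the interval lies below that of *Rian* itself (0.589 to 0.712). *AF357359* held 33 and 16 reads in the controls against 2 and 4, and the other 3 rows held 0 in both csPIMT-/- libraries. The 3 miRNA rows within *Rian* held 12 and 11 reads in the controls and 2 and 0 in csPIMT-/-.

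Genes that work with these RNAs were followed by lists, described by their counts beside those of all genes. Over both ages limma called 17.5% of 14847 genes lower and 11% higher in csPIMT-/-. No gene was called after the GC trend was subtracted from each library (3829 at an unadjusted p under 0.05) or without the mean trend of the variance (5965), so none of the calls below was made under those settings.

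Of 19 genes for paraspeckle proteins, which bind *Neat1*, 9 were called lower and 0 higher by limma. Their ratios had a median of 0.505 at 2 months and 0.595 at 6 months (0.774 and 0.832 with the GC trend subtracted). *Sfpq*, a core paraspeckle protein, had 4181 and 4036 normalized counts in the controls of 2 and 6 months and 1115 and 1825 in csPIMT-/-, with ratios of 0.267 and 0.452 (limma adjusted p = 0.022). *Taf15*, an RNA-binding protein of the FET family, had ratios of 0.339 and 0.273 (limma adjusted p = 0.0272). At the other end, *Dazap1* had 0.952 and 1.56 and *Smarca4*, a chromatin remodelling ATPase, 1.21 and 1.29, and neither was called.

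Of 13 genes for nuclear speckle proteins and *Malat1* processing, 7 were called lower and 0 higher by limma, with median ratios of 0.502 and 0.593 (0.740 and 0.737 with the GC trend subtracted). *Srsf3*, a splicing factor, had 3201 and 3327 normalized counts in the controls and 582 and 805 in csPIMT-/-, with ratios of 0.182 and 0.242 (limma adjusted p = 0.0163). *Pnn*, which encodes pinin, had 0.261 and 0.246 (limma adjusted p = 0.0163). *Elac2*, the endonuclease that trims the 3′ ends of tRNAs and of the tRNA-like RNA cut from *Malat1*, had 1.46 and 1.498 and was not called. *Srsf2*, another splicing factor, had 0.713 and 0.768 and was not called.

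Of 26 other imprinted genes 20 were tested by limma, and 7 were called lower and 1 higher. The median ratio was 0.475 at 2 months and 0.901 at 6 months, of 21 genes with at least 10 reads at each age (0.556 and 0.948 with the GC trend subtracted). *Mest*, a paternally expressed gene linked to growth, had 2367 and 1149 normalized counts in the controls and 342 and 241 in csPIMT-/-, with ratios of 0.144 and 0.210 (limma adjusted p = 0.0163). *Zdbf2* had 0.050 and 0.237, from 114 and 20 reads in the controls and 4 in each csPIMT-/- library, and was not called. *Peg13*, a noncoding RNA, was the gene called higher, with 1.94 and 1.64 (limma adjusted p = 0.0418), and *Nnat* had 14.6 and 1.58 without being called.

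The protein-coding genes and *Dio3os* of the *Dlk1*-*Dio3* domain were at the edge of detection. *Dlk1*, a Notch-related ligand of fetal tissue, had 30 and 1 reads in the controls of 2 and 6 months and 4 and 6 in csPIMT-/-. *Dio3*, which inactivates thyroid hormone, had 6 and 1 against 12 and 38, and *Dio3os* 10 and 1 against 12 and 27. *Begain* had 10 and 10 against 21 and 32, and *Rtl1* 8 and 7 against 12 and 1. Of the 3 that limma tested (*Begain*, *Dio3* and *Dio3os*) none was called. These 3 stood higher in csPIMT-/- at both ages. They reached the limma minimum of 10 normalized counts in 2 libraries only in csPIMT-/-, with every control value below 10. Their direction was thus fixed by that minimum and cannot be set against that of *Meg3*, *Rian* and *Mirg*. *Dlk1* and *Rtl1*, which did not reach it, changed direction between the ages. *Begain* had ratios of 2.99 (1.35 to 7.12) and 3.79 (1.82 to 8.63), or 1.73 and 2.13 with the GC trend subtracted. In that setting the 2-month ratio was 1.76 for *Dio3* and 1.04 for *Dio3os*. For *Dio3* and *Dio3os* the counting intervals of the 2-month ratios (0.990 to 9.25 and 0.677 to 4.42) contain 1, and with 1 read each in the 6-month control their ratios there are not given.

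Other noncoding RNAs, which were not matched on abundance, were also followed. Of 20 listed snoRNA host genes 12 were found, and of the 11 that limma tested 3 were called lower and 0 higher, with median ratios of 0.716 and 0.879, which turned to 1.09 and 2.01 with the GC trend subtracted. *Snhg4* (0.264 and 0.477, limma adjusted p = 0.0497) and *Snhg5* (0.396 and 0.355, limma adjusted p = 0.0467) had the lowest mean log2 ratios of those with at least 100 reads in 1 library, and *Snhg3* (0.792 and 1.51) and *Snhg8* (0.764 and 1.26) the highest. Of 20 other long noncoding RNAs 9 were found, and of the 8 tested 5 were called lower and 1 higher, with medians of 0.345 and 0.319 (0.706 and 0.884 with the GC trend subtracted). *Tug1* had 3201 and 4198 normalized counts in the controls and 412 and 689 in csPIMT-/-, with ratios of 0.129 and 0.164 (limma adjusted p = 0.0163). *Mir17hg*, host of the miR-17 cluster, had 0.0521 and 0.0895 (limma adjusted p = 0.0182), while *1810058I24Rik* was called higher with 1.59 and 2.09 (limma adjusted p = 0.0469) and *Pvt1* had 1.49 and 2.52 without being called.

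**Figure D5:**
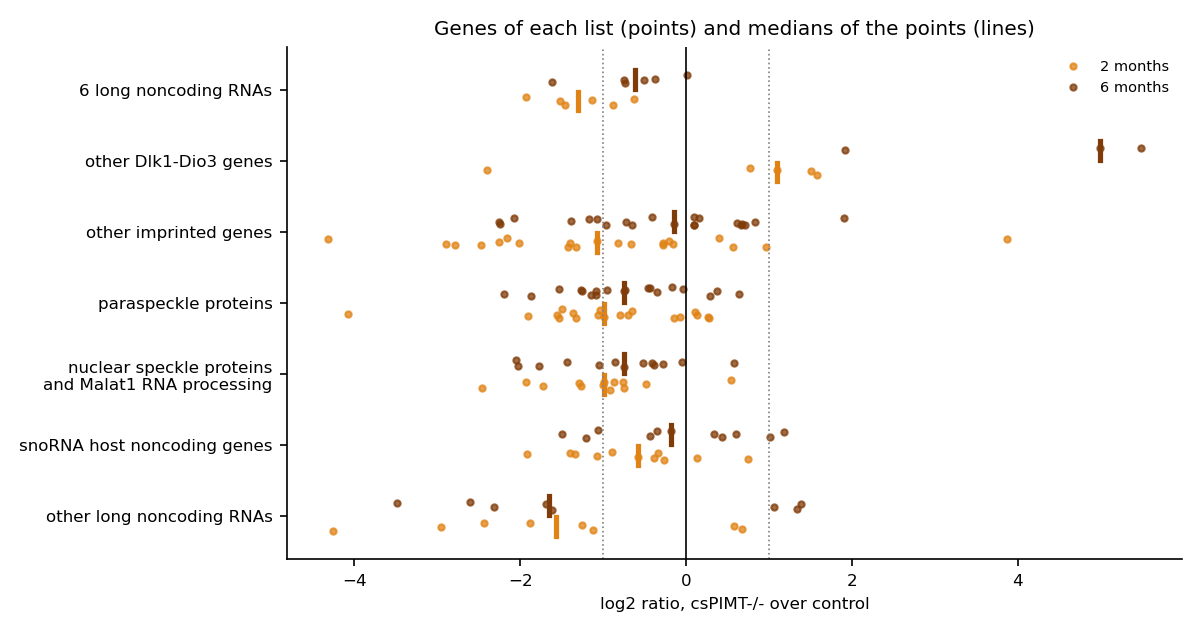
log2 ratio of csPIMT-/- over control (horizontal axis) of each gene (points) of the 6 noncoding RNAs and the lists, at 2 months (light) and 6 months (dark), for genes that reached 10 reads in either library and had reads in both. Thick lines are medians of the points and dotted lines stand at ratios of 0.5 and 2. The paraspeckle and speckle lists have no gene above a ratio of 2 at either age, and the other *Dlk1*-*Dio3* genes rest on few reads.

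The pattern of each gene over the 4 libraries was compared with those of all genes with a mean of at least 100 normalized counts, by the root mean square difference of log2(normalized count + 1) centred on the gene's mean. The nearest to *Malat1* were *Zfp326* (0.024), *Slain2* (0.026) and *Mtdh* (0.037). For *Neat1* they were *Srp9* (0.108), *Cysltr1* (0.148) and *Slc16a6* (0.157), and for *H19* *Akap12* (0.0731), *Dclk2* (0.0760) and *Ptn* (0.0783). For *Meg3* they were *Plekhh2* (0.0473), *Spty2d1* (0.0732) and *1810011O10Rik* (0.0750), for *Rian* *Adamts7* (0.110), *Ano3* (0.136) and *Adamts19* (0.141), and for *Mirg* *4930579G24Rik* (0.0158), *Mark3* (0.0211) and *Kcna1* (0.0361). *Srp9*, for example, had 564 and 1287 normalized counts in the controls and 271 and 835 in csPIMT-/-. None of the nearest genes of a member was another of the 6, although *Mirg*, below the minimum of 100, could not be one. Among the 6 the closest pair was *H19* and *Mirg* (0.239) and the farthest *Neat1* and *Rian* (1.25). Over 4 libraries many genes come close to any given pattern, and the likeness is a description.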

How the data were processed

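RNA from pooled hearts was selected on oligo-dT and sequenced from directional libraries. The authors removed adapters, poor reads and ribosomal RNA, aligned reads to mm10 with STAR, counted them with htseq-count (HTSeq 0.6.1p1 in the submitters' notes, which also name DESeq2) and a UCSC annotation. The strand setting, other versions and any sequencing batch are not given in the sources used here, so antisense reads cannot be told apart and nothing was compared within batches. The deposited values are a signal, reads per gene divided by a size factor. The 6-month csPIMT-/- column is headed as read counts but holds normalized values. Every value was a whole multiple of 1 read (100% of values), and edgeR and DESeq2 were run on these reads as alternatives.

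Ratios used the deposited scale, genes with at least 10 reads in 1 library, 0.5 reads added for log2 values, and 95% Clopper-Pearson intervals. GC content was that of the longest GENCODE transcript (98.8% of genes compared), with a lowess span of 0.3. limma 3.58.1 (R 4.3.3, edgeR 4.0.16, DESeq2 1.42.0) used a mean trend, genes with at least 10 normalized counts in 2 libraries, and Benjamini-Hochberg adjustment at 0.05. The steps were tested on simulated data.

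Members, lists and rules were chosen with earlier results of these data known. Named were the 6 genes, *Tgs1*, genes around rank 10, the 3 nearest in pattern, small RNAs within a member, and from each list the 2 lowest and 2 highest by mean log2 ratio with at least 100 reads in 1 library. The whole *Dlk1*-*Dio3* list and *Igf2* were named outside this rule.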

Additional observations from a re-analysis of the deposited data

Results flagged for a closer look

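The snoRNA host genes *Snhg3* and *Snhg8* had ratios of csPIMT-/- over control on opposite sides of 1 at the 2 ages. *Snhg3* had a ratio of 0.792 at 2 months and 1.51 at 6 months, and *Snhg8* had 0.764 and 1.26. With 1 library per group the difference between the ages was not tested. With the GC trend subtracted, *Snhg3* had 1.60 and 3.501 and *Snhg8* 1.14 and 2.02, all above 1.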

How the results depend on the processing

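Of 114 values of the 6 genes under the alternatives, 97 kept the sign of their log2 ratio and 55 moved by less than the counting error. With the GC trend subtracted, *Rian* at 6 months reversed from a log2 ratio of -1.62 to 0.22, *Rian* at 2 months turned from -0.63 to 1.26 and *Malat1* at 6 months from -0.73 to 0.51, the genes past 2-fold numbered 3988 (1752 lower, 2236 higher) in place of 6021 (3405 and 2616) at 2 months and 4154 (2011 and 2143) in place of 6373 (3794 and 2579) at 6 months, the genotype calls fell from 4232 to 0, and the members past 2-fold numbered 0 in place of 1 at 6 months and 2 in place of 1 between the controls, where pairwise size factors also gave 2. Without the mean trend of the variance the genotype calls were 0. DESeq2 called 93 genes for age in place of 0. At 6 months the control of the other age and the mean of both controls each gave 2 members past 2-fold. The causes of these changes were not tested. No paired analysis was possible because each group had 1 library without a replicate number, and for the same reason no replicate could be left out. The lowest counts, those of *Mirg*, limit its ratios to wide intervals.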

Other observations

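Reads on small RNA rows beyond the members were looked at after the values of the members had been seen. From the start of *Meg3* to the end of *Mirg*, 52 miRNA rows held 131 and 94 reads in the controls of 2 and 6 months and 50 and 36 in csPIMT-/-, with ratios of 0.544 (95% counting interval 0.385 to 0.759) and 0.453 (0.2996 to 0.672). No row held more than 12 reads in a library. The tables list 114 snoRNA rows. Of the 75 with at least 10 reads in 1 library at 2 months, 10 were below 0.5 and 23 above 2, with a median ratio of 1.49. Of the 79 at 6 months, 6 were below 0.5 and 37 above 2, with a median of 1.89. The summed reads of the 4 snoRNA rows within *Rian* were lower in csPIMT-/- at both ages, on few reads.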
